A study of Mus musculus with 14 samples.

Results

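The genes described here are 5 transcripts enriched in the striatum, Ppp1r1b, Drd2, Adora2a, Rgs9 and Penk, followed through libraries made from mouse cerebral cortex. They were chosen by symbol, and all 5 were found among the 23412 genes of the count table. RNA-seq libraries came from 4 control mice (1, 3, 6 and 8) and from 4 knock-out (KO) mice (2, 4, 5 and 7). Ribosome profiling, which sequences the mRNA fragments that ribosomes protect from nuclease (footprints), used 3 mice per genotype, controls 1, 3 and 9 and KO mice 2, 4 and 10. The labels give controls as Rpl22flox/flox;CamKCre+ and KO mice as Fmr1X-Y with the same pair of alleles, so every mouse carried the floxed Rpl22 gene and a CamK-driven Cre, and no group lacks them. The labels name the source as CAMKIIa-Ribotag brain and the tissue as cortex, give no age, and describe monosomes from a sucrose gradient with no immunoprecipitation of tagged ribosomes, so the libraries are of bulk tissue.

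The striatum lies directly beneath the cortex, and most of its cells are medium spiny neurons that receive dopamine. Those of the direct pathway carry the D1 receptor, and those of the indirect pathway carry the D2 dopamine receptor and an adenosine receptor and make enkephalin. Drd2 encodes the D2 receptor, Adora2a that adenosine receptor and Penk the precursor of the enkephalins. Ppp1r1b encodes DARPP-32, which inhibits protein phosphatase 1 when dopamine signalling has phosphorylated it, and Rgs9 encodes a regulator that speeds the switching-off of G proteins coupled to the D2 and opioid receptors. Penk is also made by some cortical interneurons and Ppp1r1b by some deep-layer cortical neurons, so these transcripts are not restricted to striatal cells. In bulk tissue fewer cells of a type and less RNA per cell cannot be told apart.

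The RefSeq promoter table (GRCm38.p6, 250 bases before to 50 after each start) held 2 of the 5 genes, Drd2 and Rgs9, whose upstream sequences are shown because they are the members for which a promoter could be read. Capitals mark the GC box, written GGGCGG on either strand.
Drd2, chr9:49340153-49340359, + strand: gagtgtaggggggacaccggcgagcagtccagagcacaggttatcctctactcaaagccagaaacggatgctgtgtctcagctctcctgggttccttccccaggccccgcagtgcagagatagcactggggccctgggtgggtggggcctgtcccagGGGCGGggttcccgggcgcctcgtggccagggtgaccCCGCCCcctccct
Rgs9, chr11:109298182-109298431, - strand: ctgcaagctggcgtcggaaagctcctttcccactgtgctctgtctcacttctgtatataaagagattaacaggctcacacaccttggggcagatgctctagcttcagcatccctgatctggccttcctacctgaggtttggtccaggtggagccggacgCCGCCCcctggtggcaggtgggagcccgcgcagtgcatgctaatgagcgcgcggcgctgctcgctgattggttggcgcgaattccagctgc
The Drd2 stretch had a GC content of 67.6% over 207 bases and the Rgs9 stretch 59.6% over 250 bases. Each 300-base window held 2 GC boxes, of which the Rgs9 stretch shows 1. A GC box was held by 38.2% of all 27025 promoters, and by 12 of 22 promoters of other striatal genes. Neither window held TGACGTCA (the cAMP response element, in 2.03% of all promoters), TGANTCA (the AP-1 site, in 8.97%) or GCGNGGGCG (the EGR site, in 6.27%), all searched on both strands. These matches describe letters only.

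As a check of the labels, Fmr1 RNA was at 83.0 ± 8.37 CPM (counts scaled to a common library size; SD, n = 4) in controls and 21.7 ± 2.40 in KO mice, and its footprints were at 113.6 ± 1.997 (SD, n = 3) and 7.46 ± 1.43. Total counts were 8847547 to 11371851 per RNA library and 4124065 to 6033030 per footprint library. Cortical excitatory markers were present in every library, at a sum of 1865 CPM or more in RNA. Some libraries stood apart. By a chi-square statistic per degree of freedom, which is near 1 for libraries that differ by counting noise alone, KO mice 2, 4 and 7 differed from one another by 1.18 to 1.32 in RNA and from KO mouse 5 by 5.64 to 6.02. Control mice 1 and 3 differed by 1.99, and control mouse 8 differed from the other controls by 4.03 to 11.8. Footprint libraries of the same genotype differed by at most 1.42 and those of different genotypes by 4.83 to 5.92, so the footprint tests rest on near-identical libraries within each genotype. Summing these would leave 1 library per genotype and no test. The labels number mice and say nothing of how the near-identical libraries were made, so p-values measure the spread between these samples. Results that turn on mouse 5 or mouse 8 are given with and without them.

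In RNA none of the 5 genes passed the test between genotypes, although the KO mean was higher than the control mean for each. In footprints Penk and Rgs9 rose in KO mice and Ppp1r1b fell. edgeR's quasi-likelihood test, with a call at an adjusted p under 0.05, called 0 of 5 in RNA, where 1001 of 13507 genes (7.41%) were called, 3.53% higher and 3.88% lower in KO. Of the 5, 2 had an unadjusted p under 0.05 in RNA (Adora2a and Penk), and DESeq2 also called 0. In footprints 3 of 5 were called, 2 higher and 1 lower, against 3102 of 12158 genes (25.5%), 11.9% higher and 13.6% lower. DESeq2 called 2 in footprints, without Rgs9, and edgeR also called 2 without control mouse 3 or KO mouse 4. On plain library sizes 66.3% of all footprint calls were higher, beside 46.7% with TMM factors, and the median of all genes shifted to 0.065. The RNA libraries of the genotypes overlapped for all 5 members, while 15.1% of all tested genes had no overlap. In footprints 3 of 5 had no overlap (Ppp1r1b, Drd2 and Penk), against 37.3% of all tested genes. The median log2 fold change (KO over control) of the 5 was 0.21 in RNA and 0.16 in footprints, beside -0.001 and 0.005 over all tested genes.

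**Figure D1:**
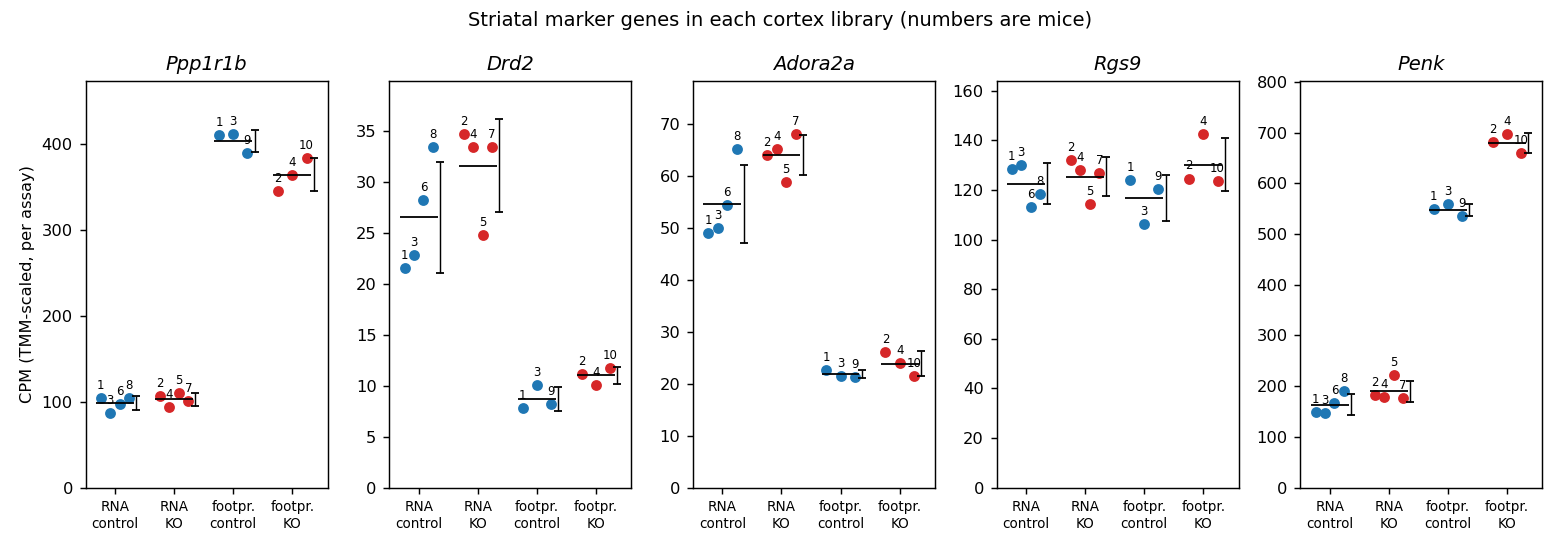
Level of each gene in CPM (vertical axis from 0, own scale for each gene) in every RNA and footprint library of control (blue) and KO (red) mice. Points are libraries with the mouse number above, lines are group means and brackets are the mean ± SD. The Penk footprints of KO mice (658.9 to 697 CPM) sit above those of controls (536 to 559 CPM), and the RNA points of the genotypes overlap in every panel.

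Among the receptors, Drd2 RNA was at 21.6, 22.8, 28.2 and 33.4 CPM in control mice 1, 3, 6 and 8. In KO mice 2, 4, 5 and 7 it was at 34.7, 33.4, 24.8 and 33.4 CPM. Control mouse 8 was at the level of 3 of the KO mice, and KO mouse 5 lay among the lower controls. The means were 26.5 ± 5.45 and 31.6 ± 4.57 CPM (SD, n = 4 each), a log2 fold change of 0.26 (SE 0.13, edgeR adjusted p = 0.269). Without control mouse 8 it was 0.40 (edgeR adjusted p = 0.0371), and in mice 1 to 4 alone it was 0.62 (edgeR adjusted p = 2.67e-05). The latter fit held only KO mice 2 and 4, which differed by 1.32 per degree of freedom, and control mice 1 and 3 (1.99). Its p-value therefore measures the spread between near-identical libraries. With KO mice 2, 4 and 7 summed and control mice 1 and 3 summed, the log2 fold change was 0.11 (edgeR adjusted p = 0.862). In mice 5 to 8 alone, it had the opposite sign, -0.080 (edgeR adjusted p = 0.88).

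Drd2 footprints were few, with 33, 59 and 46 counts in control mice 1, 3 and 9 and 47, 45 and 56 in KO mice 2, 4 and 10. These correspond to 7.81, 10.03 and 8.17 CPM and to 11.2, 10.1 and 11.8 CPM. The groups did not overlap, but control mouse 3 and KO mouse 4 were nearly level. The log2 fold change was 0.33 (SE 0.18, edgeR adjusted p = 0.188), and Drd2 did not pass the test at this depth.

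Adora2a RNA was at 49.0, 49.9, 54.4 and 65.2 CPM in control mice 1, 3, 6 and 8, and at 64.1, 65.2, 58.8 and 68.0 CPM in KO mice 2, 4, 5 and 7. As for Drd2, control mouse 8 lay among the KO libraries and KO mouse 5 was the lowest of its group. The means were 54.6 ± 7.46 and 64.0 ± 3.85 CPM (SD, n = 4 each), a log2 fold change of 0.23 (SE 0.088, edgeR adjusted p = 0.125). Without control mouse 8 the log2 fold change was 0.33 (edgeR adjusted p = 0.00579). It was 0.39 in mice 1 to 4 (edgeR adjusted p = 1.78e-04) and 0.086 in mice 5 to 8 (edgeR adjusted p = 0.828). As for Drd2, the fit of mice 1 to 4 rests on near-identical libraries. With both sets of near-identical libraries summed, the log2 fold change was 0.16 (edgeR adjusted p = 0.693). Adora2a footprints were at 22.7, 21.4 and 21.3 CPM in control mice 1, 3 and 9 and at 26.2, 24.02 and 21.4 CPM in KO mice 2, 4 and 10, with KO mouse 10 inside the control range. Their log2 fold change was 0.13 (SE 0.12, edgeR adjusted p = 0.486).

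Of the intracellular regulators, Ppp1r1b showed the smaller spread in footprints. Its RNA was at 105, 86.9, 97.5 and 104 CPM in control mice 1, 3, 6 and 8 and at 107, 93.5, 110.2 and 101 CPM in KO mice 2, 4, 5 and 7, with no separation of the genotypes. The RNA log2 fold change was 0.064 (SE 0.071, edgeR adjusted p = 0.636). Its footprints were at 410.4, 412 and 389 CPM in control mice 1, 3 and 9 and at 345, 364 and 384 CPM in KO mice 2, 4 and 10. Every KO library lay below every control, although KO mouse 10 and control mouse 9 were within a few CPM. The footprint level of DARPP-32 mRNA fell by 0.14 on the log2 scale in KO (SE 0.034, edgeR adjusted p = 4.95e-04), a ratio of 0.905. On plain library sizes, without TMM factors, the fall was smaller, at -0.085 (edgeR adjusted p = 0.0489), and over all alternatives it ranged from -0.19 to -0.085.

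Rgs9 RNA was at 129, 130.1, 113 and 118 CPM in control mice 1, 3, 6 and 8, and at 132, 128, 114 and 127 CPM in KO mice 2, 4, 5 and 7. Mice 1 to 4 of both genotypes were level, and the log2 fold change was 0.034 (SE 0.064, edgeR adjusted p = 0.799). Its footprints were at 124, 106 and 120.4 CPM in control mice 1, 3 and 9 and at 125, 143 and 123 CPM in KO mice 2, 4 and 10. The groups overlapped, with control mouse 3 lowest and KO mouse 4 highest. The rise in footprints, 0.16 on the log2 scale (SE 0.057, edgeR adjusted p = 0.0247), passed the test with these 2 libraries in. Without control mouse 3 the log2 fold change was 0.092 (edgeR adjusted p = 0.328), and without KO mouse 4 it was also 0.092 (edgeR adjusted p = 0.341). Rgs9 was not called in either case, nor by DESeq2 (log2 fold change 0.16, DESeq2 adjusted p = 0.172), and its adjusted p over all alternatives ranged from 0.00128 to 0.341.

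Penk, the neuropeptide precursor, had the clearest difference in footprints. Its RNA was at 149, 146, 168 and 191 CPM in control mice 1, 3, 6 and 8 and at 184, 178, 222 and 177 CPM in KO mice 2, 4, 5 and 7. KO mouse 5 was the highest library and control mouse 8 lay between it and the other KO mice, so the groups overlapped through mouse 8 alone. The RNA log2 fold change was 0.21 (SE 0.090, edgeR adjusted p = 0.164). It was 0.30 without control mouse 8 (edgeR adjusted p = 0.0184) and 0.14 without KO mouse 5 (edgeR adjusted p = 0.313).

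Penk footprints were at 549, 559 and 536 CPM in control mice 1, 3 and 9 and at 682, 697 and 658.9 CPM in KO mice 2, 4 and 10. The gap between the groups was larger than the range within either. The means were 548 ± 11.6 and 679 ± 19.1 CPM (SD, n = 3 each). Penk footprints rose by 0.31 on the log2 scale (SE 0.028, edgeR adjusted p = 1.67e-16), a ratio of 1.24. Over the alternatives the log2 fold change stayed between 0.29 and 0.37, with adjusted p between 4.38e-26 and 4.4e-10.

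**Figure D2:**
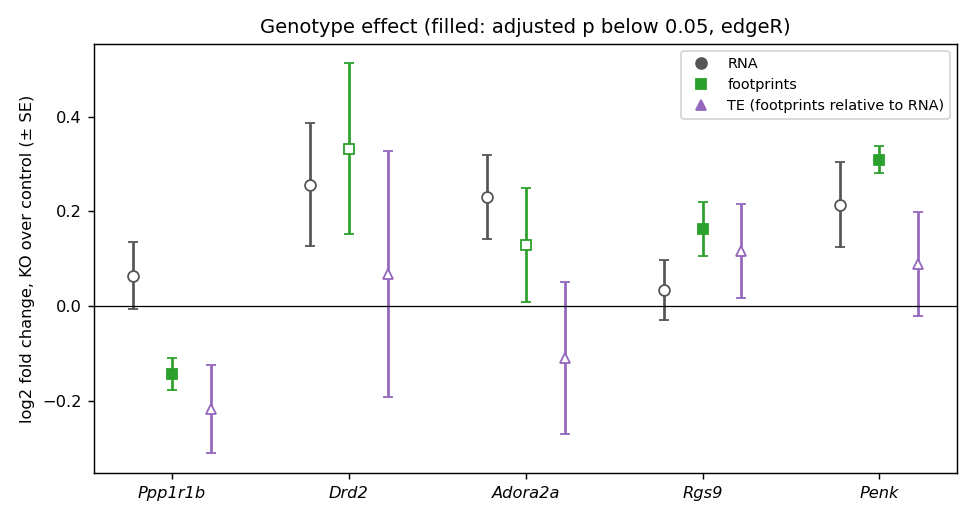
Log2 fold change (KO over control, ± SE from edgeR) of each gene in RNA (circles), in footprints (squares) and in footprints relative to RNA (triangles, TE). Filled symbols have an adjusted p below 0.05, and these are the footprints of Ppp1r1b (-0.14), Rgs9 (0.16) and Penk (0.31).

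The genotype effect on the 5 genes in RNA depended on which libraries entered the fit. With control mouse 8 left out, Drd2, Adora2a and Penk were called higher in KO, and the same 3 were called in mice 1 to 4 alone and with mice 5 and 8 left out together. Calls over all genes rose in these fits too, from 1001 with all libraries to 1763, 3273 and 3063, in that order. In mice 5 to 8 alone 0 of 5 were called by edgeR, and 88 of all genes. When the near-identical libraries of KO mice 2, 4 and 7 were summed into 1, 0 of 5 were called, with or without summing control mice 1 and 3. Calls over all genes were then 79, and 36 with control mice 1 and 3 also summed. The member counts thus went up and down with those over all genes. Ppp1r1b and Rgs9 were not called in any of these RNA fits.

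**Figure D3:**
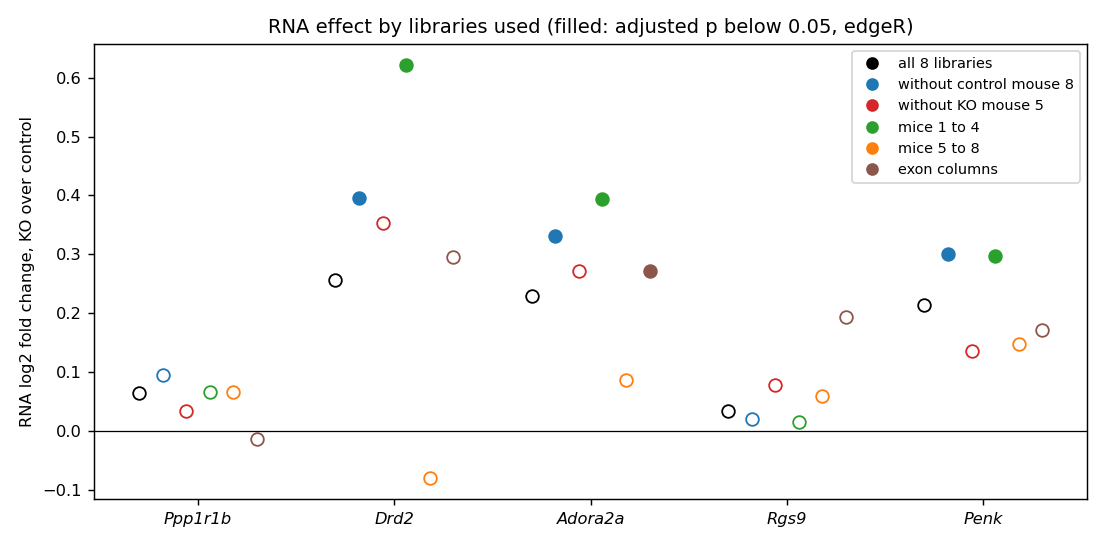
RNA log2 fold change (KO over control) of each gene with all 8 libraries, without control mouse 8, without KO mouse 5, in mice 1 to 4, in mice 5 to 8 and in the exon columns. Filled points have an edgeR adjusted p below 0.05. Drd2 runs from -0.080 in mice 5 to 8 to 0.62 in mice 1 to 4, while Ppp1r1b runs from -0.013 to 0.096.

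Translational efficiency (TE), tested as the interaction of genotype and assay over all 14 libraries, did not pass for any of the 5, against 7.81% of 12145 genes called (3.40% higher and 4.41% lower). On plain library sizes 68.2% of all TE calls were higher, beside 43.5% with TMM factors. By edgeR 1 of the 5, Ppp1r1b, had an unadjusted p under 0.05, and DESeq2 called 0. The log2 fold change of TE was -0.22 for Ppp1r1b (SE 0.093, edgeR adjusted p = 0.156), -0.11 for Adora2a (SE 0.16), 0.068 for Drd2 (SE 0.26), 0.089 for Penk (SE 0.11) and 0.12 for Rgs9 (SE 0.10). The median of the 5 was 0.068, beside -0.011 over all genes. For Penk the footprint rise therefore came with an RNA difference of the same sign, and TE did not pass the test. Mice 1 to 4 were in both assays. With mouse as a replicate block in these 4, Ppp1r1b was called lower in TE, at -0.29 (edgeR adjusted p = 0.00167), and it was called in the same mice without the block, at -0.28 (edgeR adjusted p = 0.00354). Calls over all genes also rose, from 949 with all libraries to 1868 with the block and 1806 without it. Within each genotype these mice gave near-identical libraries. The counts lend the pairing by mouse no support (correlations of -0.0133 to 0.0341). With the near-identical RNA libraries summed, over all mice, the TE change of Ppp1r1b was -0.24 (edgeR adjusted p = 0.151) and 0 of 5 were called, beside 579 of all genes.

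Footprints per RNA, the footprint CPM divided by the RNA CPM in the same mouse, differed far more between the 5 genes than between the genotypes. For Ppp1r1b the ratio was 3.91 and 4.74 in control mice 1 and 3 and 3.23 and 3.89 in KO mice 2 and 4. For Penk it was 3.68 and 3.82 in controls and 3.71 and 3.92 in KO mice. Both genes stood at or above percentile 98.8 of the 12145 genes in every one of these mice.

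At the other end, the ratio for Drd2 was 0.362 and 0.440 in controls and 0.322 and 0.303 in KO mice, from percentile 7.17 to percentile 14.7 of all genes. For Adora2a it was 0.464 and 0.429 in controls and 0.408 and 0.368 in KO mice, from percentile 10.8 to percentile 16.2. Rgs9 stood near the middle, at 0.964 and 0.818 in controls and 0.943 and 1.11 in KO mice. The 2 receptors therefore carried few footprints for their RNA, and the peptide precursor and DARPP-32 many.

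Other striatal genes spread over the same range. From control means, the dynorphin precursor Pdyn had a ratio of 4.51 (percentile 99.5), next to Ppp1r1b at 4.10 and Penk at 3.35. The substance P precursor Tac1 had 1.44 and the sodium channel subunit Scn4b 1.46. The D1 receptor Drd1 had 0.560 and the receptors Gpr52 and Gpr149 had 0.401 and 0.376. Adcy5, the adenylyl cyclase of these neurons, had 0.330, beside 0.327 for Drd2. Not every receptor was low, since the orphan receptor Gpr6 had 1.49. The region of each transcript counted in the footprint columns and in these RNA columns is not given in the sources used here, and a difference between them would enter the ratios.

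**Figure D4:**
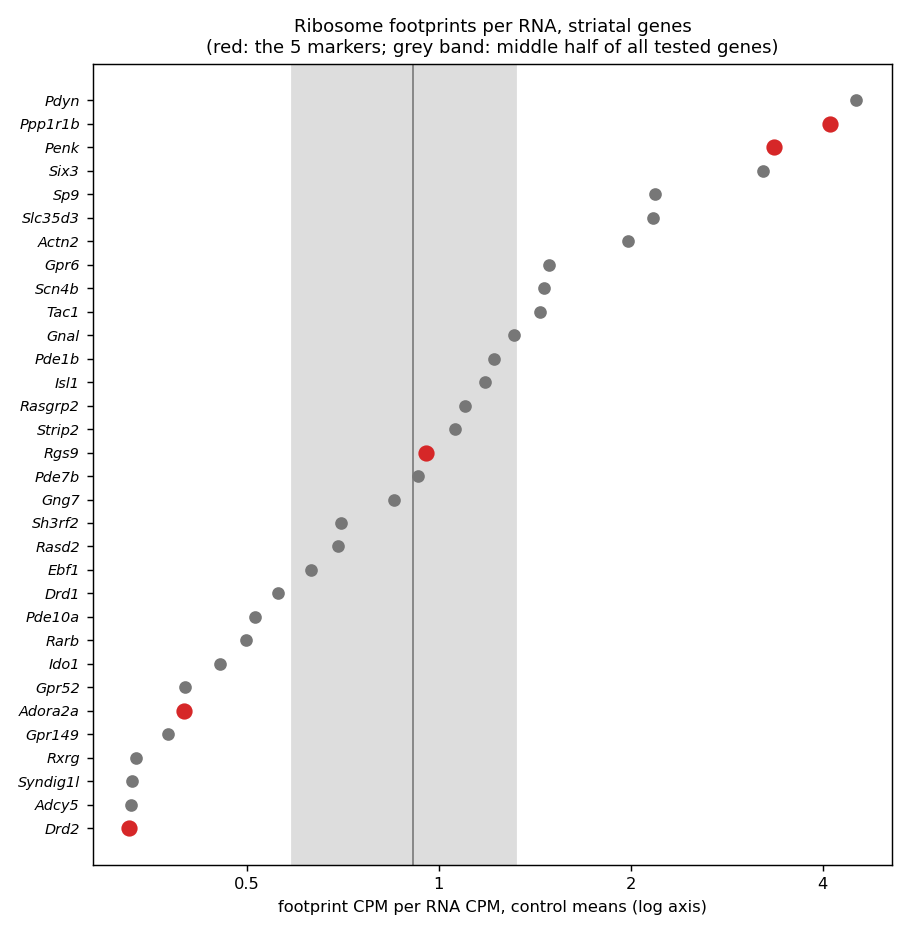
Footprint CPM per RNA CPM (control means, log axis) of striatal genes, with the 5 members in red. The grey band holds all tested genes between the lower and upper quartile (0.590 to 1.32) and the line is their median (0.913); Ppp1r1b and Penk lie to the right of the band, Rgs9 inside it, and Adora2a and Drd2 to its left.

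The table also gave a second RNA count, in columns marked exon, whose totals were 16351772 to 20793293. The count in the other RNA column, as a percent of a gene's exon count, was 32.3% to 38.4% for Ppp1r1b, 87.3% to 94.0% for Drd2, 50.9% to 59.5% for Adora2a and 70.9% to 77.7% for Penk. For Rgs9 it was 60.6% to 61.6% in KO mice 2, 4 and 7 and 66.2% to 73.9% in the controls, with KO mouse 5 at 69.1%, inside the control range. In exon CPM, Rgs9 was at 102.5, 103, 88.2 and 90.4 in control mice 1, 3, 6 and 8 and at 119, 115, 89.7 and 116 in KO mice 2, 4, 5 and 7. Its exon log2 fold change was 0.19 (edgeR adjusted p = 0.186), beside 0.034 in the other columns. With the exon columns Adora2a was called higher (0.27, edgeR adjusted p = 0.0387) and the other 4 were not, and Ppp1r1b changed sign to -0.013 (edgeR adjusted p = 0.92).

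Among themselves the 5 genes did not vary as a block. Over the 8 RNA libraries Drd2 and Adora2a had the highest Pearson correlation of log2 CPM, 0.923, which is given as a description because the pair share libraries and their depth. Adora2a and Penk were at 0.650, Ppp1r1b and Penk at 0.648, Drd2 and Penk at 0.438. Rgs9 followed none of the indirect-pathway genes, with 0.0688 to Drd2, 0.00326 to Adora2a and -0.521 to Penk. Over the 6 footprint libraries Ppp1r1b ran opposite to the others, at -0.820 to Penk, -0.810 to Adora2a and -0.555 to Drd2. Both genotypes enter all these correlations, so the genotype differences given above are part of them. Across members the spread between RNA libraries of a genotype was widest for Drd2 (coefficient of variation 20.5% in controls and 14.5% in KO mice) and narrowest for Adora2a in KO mice (6.01%) and Rgs9 (6.65% and 6.18%).

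The mean deviation of the 5 from their 8-library mean, on the log2 CPM scale, was -0.16, -0.19, -0.074 and 0.097 in control mice 1, 3, 6 and 8. It was 0.13, 0.067, 0.030 and 0.098 in KO mice 2, 4, 5 and 7. Control mouse 8 thus stood with the KO libraries and the other controls stood below 0. In footprints the mean deviation was -0.070, -0.056 and -0.11 in control mice 1, 3 and 9 and 0.083, 0.091 and 0.058 in KO mice 2, 4 and 10. The summed level of the 5 was 436 to 513 CPM in control RNA and 498 to 529.6 CPM in KO RNA, and 1075 to 1114 CPM in control footprints and 1189 to 1238 CPM in KO footprints. No member was at 0 in any library.

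The members were set beside a wider list of 29 striatal genes. In RNA 3 of 29 were called higher in KO and 0 lower (edgeR), 24 had a positive log2 fold change, and the median was 0.11. Over all tested genes 3.53% were called higher and 49.8% had a positive change. The called genes were Scn4b, Rasd2, which encodes a striatal small G protein, and Lrrc10b. Scn4b RNA was at 77.2, 77.2, 83.2 and 84.1 CPM in control mice 1, 3, 6 and 8 and at 103, 100.1, 99.3 and 102 CPM in KO mice 2, 4, 5 and 7. Unlike every member, it did not overlap between the genotypes and mice 5 and 8 stood with their own groups. It rose by 0.33 on the log2 scale (SE 0.054, edgeR adjusted p = 0.00304), Rasd2 by 0.31 (SE 0.065, adjusted p = 0.0118) and Lrrc10b by 0.48 (SE 0.11, adjusted p = 0.0157). Without control mouse 8 the count called higher was 5, in mice 1 to 4 it was 9, with mice 5 and 8 left out it was 7, and in mice 5 to 8, or with KO mice 2, 4 and 7 summed, it was 0. Calls over all genes, in either direction, moved with it. They were 1763, 3273, 3063, 88 and 79 in these fits, in that order, beside 1001 with all libraries.

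In footprints 28 of the 29 were tested, 10 were called higher and 2 lower, 21 had a positive log2 fold change and the median was 0.16. Over all tested genes 11.9% were called higher, 13.6% lower and 50.9% had a positive change. The largest called rise was in Gng7, the G protein subunit that couples striatal receptors to adenylyl cyclase, at 39.3, 36.7 and 40.7 CPM in control mice 1, 3 and 9 and 64.9, 65.5 and 72.6 CPM in KO mice 2, 4 and 10. Its RNA did not pass the test (log2 fold change -0.060, edgeR adjusted p = 0.763), so Gng7 was also the 1 listed gene called higher in TE (0.85, SE 0.14, edgeR adjusted p = 5.72e-04). Scn4b (0.41) and Tac1 (0.38) had the next largest rises among called genes. The direct-pathway receptor gene Drd1 rose by 0.26 (SE 0.095, edgeR adjusted p = 0.0351), from 35.95, 31.4 and 38.7 CPM in controls to 42.6, 41.8 and 42.2 CPM in KO mice. The genes called lower were Slc35d3, which takes part in D1 receptor trafficking (-0.44, adjusted p = 0.0356), and Adcy5 (-0.14, adjusted p = 0.0383). Adcy5 was also called lower in TE (-0.25, SE 0.076, edgeR adjusted p = 0.0420). Pdyn, the dynorphin counterpart of Penk, had log2 fold changes of 0.32 in RNA (edgeR adjusted p = 0.180) and -0.19 in footprints (edgeR adjusted p = 0.0669). The count called higher in footprints was 6 with DESeq2 and also 6 without control mouse 1, without KO mouse 4 or without KO mouse 10. On plain library sizes, without TMM factors, it was 12, and 0 were called lower. The count called lower was also 0 with DESeq2 and without control mouse 3, KO mouse 2 or KO mouse 4. It was 1 without control mouse 1 or control mouse 9. The TE counts on plain library sizes were 2 higher and 0 lower. The TE count called higher was also 2 without control mouse 1 or KO mouse 5. The TE count called lower was 0 without control mice 1, 3 or 9 or KO mice 2 or 4, each left out alone, and it was 2 without KO mouse 5 or control mouse 8.

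Among the most abundant of the wider list in RNA were Adcy5, with a mean of 466 CPM, the phosphodiesterase genes Pde1b (282 CPM) and Pde10a (275 CPM), the G protein subunit gene Gnal (148 CPM) and Scn4b (90.8 CPM). None of these but Scn4b was called in RNA. All of these were called in footprints, Adcy5 lower and the others higher.

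The partners of the members in signalling were tested from separate lists. Of 17 genes that act with DARPP-32, 2 were called higher in RNA and 0 lower, beside 3.53% and 3.88% of all genes, the calcineurin subunit Ppp3r1 (0.37, SE 0.061, edgeR adjusted p = 0.00342) and the protein kinase A subunit Prkaca (0.23, SE 0.054, edgeR adjusted p = 0.0204). In footprints 16 were tested, 9 were called higher and 1 lower, with a median of 0.13, beside 11.9% and 13.6% of all genes called higher and lower. The largest called rises were in the protein phosphatase 1 subunits Ppp1ca (0.33) and Ppp1cb (0.27) and in Ppp3r1 (0.31), while the kinase regulatory subunit Prkar1a fell by 0.13 (SE 0.024, edgeR adjusted p = 1.25e-05). The smallest called rises were in the phosphatase 2A subunit Ppp2ca (0.086) and the kinase subunit Prkacb (0.13). Ppp1ca footprints were at 216, 215 and 228 CPM in control mice 1, 3 and 9 and 279, 269.6 and 279.6 CPM in KO mice 2, 4 and 10. Of the protein phosphatase 1 subunits, Ppp1cc had too few footprints to be tested. The TE of Ppp1ca (0.27, edgeR adjusted p = 0.0401) and Prkacb (0.22, edgeR adjusted p = 0.0334) was called higher.

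Of 7 other dopamine and adenosine receptor genes 6 were tested in RNA and 4 in footprints. By edgeR 0 were called in RNA and 1, Drd1, in footprints, beside 7.41% and 25.5% of all genes. Adora1, the A1 receptor, was at 63.5, 56.7, 76.0 and 88.5 CPM in control mice 1, 3, 6 and 8 and 92.4, 88.7, 75.5 and 91.4 CPM in KO mice 2, 4, 5 and 7. As for Adora2a, control mouse 8 was the highest control and KO mouse 5 the lowest KO library. Its log2 fold change was 0.29 (SE 0.11, edgeR adjusted p = 0.130). None of the 4 RGS9 partner genes, among them Gnb5, the obligate G protein beta subunit of this family, was called in RNA, footprints or TE. The shares of all genes called there were 7.41%, 25.5% and 7.81%. In the opioid system 0 of 9 genes were called in RNA or TE and 3 in footprints, a share near the 25.5% of all genes called there. These were Cpe, a peptide-processing enzyme (0.16, edgeR adjusted p = 4.15e-12), Pcsk1n, an inhibitor of such processing (-0.11, edgeR adjusted p = 0.0201), and Pomc, the precursor of beta-endorphin (-1.63, edgeR adjusted p = 0.00315), which is also on the hypothalamic list. No opioid receptor gene passed the test in either assay.

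The genes most like the mean of the 5 over the 8 RNA libraries, by Pearson correlation of centred log2 CPM among the 11448 genes averaging 5 CPM or more, were Mtss1l (0.997), Fam134a (0.990), Emc4 (0.989), Zdhhc18 (0.987), Lpcat4 (0.986) and Maneal (0.986). None of these is in the striatal lists. The closest single genes were Prmt8 for Ppp1r1b (0.933), Hcfc1r1 for Drd2 (0.984), S100pbp for Adora2a (0.994), Mon2 for Rgs9 (0.968) and Ntrk2 for Penk (0.993). Of the wider striatal list 25 genes could be ranked, with a median correlation of 0.644 beside -0.00835 over all ranked genes, and 6 of the 25 were among the highest 1144 (10%). Rasd2 (0.907) and Scn4b (0.838) were highest, and Ebf1 (-0.232) was lowest. All these values share 8 libraries and their depth and carry no test.

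Markers of other regions and cell types were measured in the same libraries, and their counts stand beside 3.53% of all genes called higher and 3.88% lower in RNA, and 11.9% and 13.6% in footprints. Cortical excitatory markers deviated by -0.098, -0.055, -0.053 and 0.007 in control mice 1, 3, 6 and 8 and by 0.075, 0.065, -0.018 and 0.077 in KO mice 2, 4, 5 and 7, so that control mice 1, 3 and 6 lay below 0 and KO mice 2, 4 and 7 above it, as for the striatal genes. Their summed RNA was 1865 to 2007 CPM in controls and 2153 to 2232 CPM in KO mice, and 1 of 7, the glutamate transporter gene Slc17a7, was called higher. In footprints 2 were called higher (Neurod6 and Slc17a7) and 1 lower (Cux2). Cortical interneuron markers, a list that shares with Penk a cell class known to make enkephalin, summed to 270.3 to 377 CPM in control RNA and 309 to 329 CPM in KO RNA. In RNA 0 of 7 were called higher and 1, Pvalb, lower (-0.35, edgeR adjusted p = 0.0137), with a median of -0.19. In interneuron footprints the sums were 658.5 to 706 CPM in controls and 832 to 863 CPM in KO mice, 4 of 7 (Npy, Sst, Vip and Pvalb) were called higher and 0 lower, and control mouse 8 was the highest RNA library at a deviation of 0.34. Layer 6 markers, from the layers where some neurons make DARPP-32, had 2 of 7 called higher and 1 lower in RNA and 2 called higher in footprints. Of the glial markers in RNA, 2 of 6 astrocyte and 1 of 6 microglial markers were called lower and 0 higher. These were Aqp4 and Gfap (astrocytes) and C1qb (microglia). Oligodendrocyte markers deviated by 0.017 to 0.10 in controls and by -0.051 to -0.048 in KO mice, and astrocyte markers by 0.026 to 0.10 and -0.13 to -0.011. In footprints 3 oligodendrocyte markers were called lower and 1 higher, 2 astrocyte markers lower and 1 microglial marker lower. Of 5 endothelial markers 0 were called in RNA by edgeR, and in footprints 2 were called higher and 1 lower. Their RNA was lowest in control mouse 8 (deviation -0.57) and KO mouse 5 (-0.49). The other controls lay at -0.21 to 0.29 and the other KO mice at 0.21 to 0.26. The part of these markers in the results for the members was not tested.

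Immediate early genes, which neurons switch on with activity, were all higher in KO mice. Of 11 such genes 11 were called higher in KO in RNA and in footprints. Their summed RNA was 273.9 to 570.1 CPM in controls and 513 to 1191 CPM in KO mice, and the deviations of control mouse 8 (-0.085) and KO mouse 5 (-0.12) were alike, between those of the other controls (-1.02 to -0.92) and KO mice 2, 4 and 7 (1.03 to 1.06). Their summed footprints were 686 to 734 CPM in controls and 2572 to 2634 CPM in KO mice. Control mouse 8, the highest control for Drd2 and Adora2a RNA, and KO mouse 5, the lowest KO library for both, were thus the libraries with intermediate immediate early RNA. The part of these genes in the results for the members was not tested.

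Hypothalamic markers were lower in KO mice, against the same shares of all genes (3.88% lower in RNA, 13.6% lower and 11.9% higher in footprints). Their summed RNA was 42.6 to 78.9 CPM in controls and 22.4 to 27.4 CPM in KO mice, 4 of 7 tested (Hcrt, Pmch, Avp and Trh) were called lower and 0 higher, and Hcrt was at 0 in at least 1 RNA library. In footprints the sums were 116 to 124 CPM and 48.7 to 53.5 CPM, with 6 called lower and 1 higher. Choroid plexus markers summed to 10.5 to 284 CPM in control RNA and 6.71 to 121 CPM in KO RNA, highest in control mouse 8 (deviation 2.18) and KO mouse 5 (1.57), with Kcne2 and Slc4a5 at 0 in at least 1 RNA library. Their summed footprints were 12.8 to 15.3 CPM in controls and 5.94 to 11.4 CPM in KO mice, and Ttr was called lower (-1.74, edgeR adjusted p = 5.18e-04). Thalamic markers summed to 93.1 to 95.7 CPM in control RNA and 81.5 to 91.4 CPM in KO RNA, with 0 of 7 called by edgeR, and in footprints 1, Prkcd, was called lower (-0.86, edgeR adjusted p = 1.91e-06). Hippocampal markers summed to 28.0 to 33.4 CPM in control RNA and 24.4 to 28.1 CPM in KO RNA, and 1, Fibcd1, was called lower in RNA (-0.59, edgeR adjusted p = 0.0396) and in footprints (-0.51, edgeR adjusted p = 0.0285). None of the cholinergic and septal markers was called in RNA or footprints by edgeR, and 1 ependymal marker was called lower in RNA. The part of these markers in the results for the members was not tested.

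**Figure D5:**
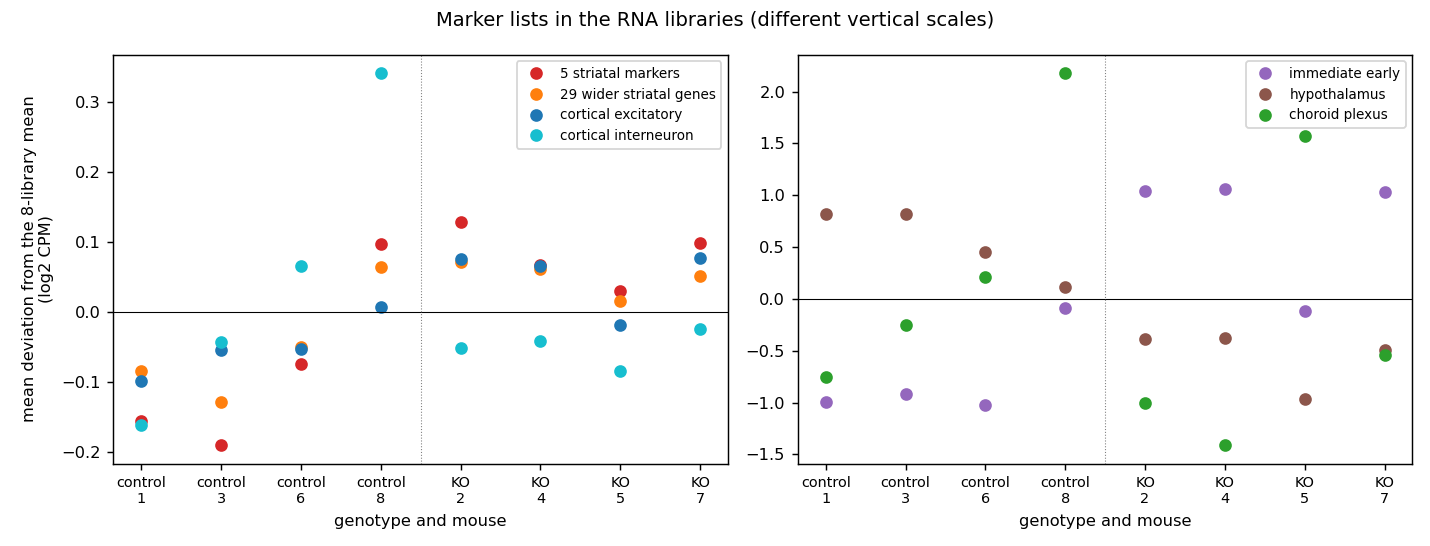
Mean deviation of each gene list from its 8-library mean (log2 CPM, vertical axes of different scale) in the 8 RNA libraries, controls left and KO mice right of the dotted line. The 5 striatal markers and the 29 wider striatal genes are above 0 in control mouse 8 (0.097 and 0.064) and in the 4 KO mice, and choroid plexus markers are highest in control mouse 8 (2.18) and KO mouse 5 (1.57).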

How the data were processed

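RNA-seq (8 libraries) and ribosome profiling (6 libraries) of cortex from 10 mice were used. The authors deposited whole-number counts per gene with no normalization. Bowtie2, STAR 2.5, featureCounts and Subread 1.4.6 and the builds mm9 and mm10 are named, without roles, per the submitters' processing notes. The RNA kit kept strand and ribosomal RNA was removed first, per the labels' protocols, but whether counting used strand is not given in the sources used here. Footprint columns and unsuffixed RNA columns were empty for 2849 of 23412 genes. Unsuffixed columns were used because they cover the footprints' genes, and they held 52.9% to 56.7% of the exon totals. The region counted is not given in the sources used here. Symbols of 21563 genes matched the RefSeq table.

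Counts were tested with edgeR 4.0.16 (R 4.3.3; quasi-likelihood F test, TMM, filterByExpr at a minimum count of 10), two-sided, and adjusted over all tested genes by Benjamini and Hochberg's method. The SE was derived from the F statistic. TE was the interaction of genotype and assay. Deviations and correlations used log2(CPM + 0.5). Pairs of libraries were compared over genes with at least 20 counts. The tests were tested on simulated data. Alternatives included DESeq2 1.42.0, and the settings that left out mice 5 and 8 together and that used mice 1 to 4 with no replicate block were chosen after seeing the data.

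The labels give mice 1 to 4 the same mouse number in both assays, and the pairing was taken from these labels. The counts lend it no support, since RNA and footprint deviations of 1 mouse correlated by 0.00308, 0.0108, 0.0341 and -0.0133 (mice 1 to 4) over 12145 genes.

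The members and gene lists were chosen with earlier results of these data known. Genes named were the members, Fmr1, the 6 most abundant and the most changed called genes of the striatal lists, up to 3 called genes at each end of each signalling list, the genes most like the members and, of the region and cell type lists, genes where 5 or fewer were called. Adora1, Pdyn, Drd1 in footprints, Gnb5, Ppp1cc, markers at 0 (Kcne2, Slc4a5), and the genes named for their footprints per RNA, were chosen after their values were seen. A gene of the striatal list that the rule names is not reported here.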

Additional observations from a re-analysis of the deposited data

Results flagged for a closer look

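Of 16 groups of 4 libraries examined for a single distant value, 2 had a gap, as a share of the group's range, above Dixon's 95% critical value for 4 samples (which flags about 1 in 20 groups by chance). Drd2 RNA in KO mouse 5 was at 24.8 CPM, with the other KO mice at 33.4 to 34.7 CPM. Penk RNA in KO mouse 5 was at 222 CPM, with the other KO mice at 177 to 184 CPM. The same library was the lowest for Drd2 and the highest for Penk. KO mice 2, 4 and 7 were nearly identical libraries, so a gap in that group falls on mouse 5 whenever mouse 5 differs.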

How the results depend on the processing

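The log2 fold changes of the 5 genes were recomputed 220 times in all under the alternatives, of which 197 kept their direction and their side of the threshold, 12 passed it anew, 3 lost it and 8 changed sign. In RNA the number of members called was 0 with all libraries, 0 to 3 when 1 library was left out, 3 in mice 1 to 4 and with mice 5 and 8 left out together, and 1 in the exon columns. In footprints it was 3, 2 with DESeq2, and 2 to 3 when 1 library was left out. Signs changed in RNA for Drd2 in mice 5 to 8 (-0.080), Ppp1r1b in the exon columns (-0.013) and Rgs9 without control mouse 6 (-0.002) and with KO mice 2, 4 and 7 summed (-0.004). Leaving out 1 RNA library at a time, Rgs9 ranged from -0.002 to 0.079. In TE the sign of Drd2 changed without KO mouse 5 (-0.023) and control mouse 8 (-0.069), in a range of -0.069 to 0.26 when 1 library or mouse was left out. With mouse as a replicate block in mice 1 to 4 the TE of Drd2 was -0.39, and without the block -0.41. The replicate block took the members called in TE from 0 to 1 (Ppp1r1b), and the same mice with no replicate block also gave 1, so the block itself changed no call of a member. The causes were not tested. Over all genes, calls in RNA were 1001, and 36 with both sets of near-identical libraries summed, 79 with KO mice 2, 4 and 7 summed, 88 in mice 5 to 8, 3273 in mice 1 to 4, 3063 with mice 5 and 8 left out, 1763 without control mouse 8 and 356 without KO mouse 4. Calls in footprints were 3102, and 1801 with DESeq2. Calls in TE were 949, and 419 without KO mouse 2, 1868 with the replicate block, 1806 in mice 1 to 4 without it and 579 with libraries summed. Depth limits Drd2 most, with 33 to 59 footprint counts per library.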
